A study of Mus musculus with 6 samples.

Results

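The 49 genes described here are the transcription factor NRF2 and its inhibitor KEAP1, with genes of glutathione, thioredoxin, peroxide, metallothionein, NADPH and iron metabolism. The set was named by symbol, with earlier results of these data known. All 49 were found among the 52636 genes of the count tables, and 47 of them passed the filter on low counts that left 15816 genes to test. RNA was sequenced from the mouse embryonic stem cell line E14 after 4 days of differentiation with 5 µM retinoic acid, a concentration the labels write as µm. The wild-type group (WT) and the enhancer cluster-KO group (KO, from which a cluster of enhancers had been deleted) had 3 libraries each, called biological replicates in the design text. Both groups had been grown in serum with LIF, 1 µM PD0325901 (a MEK inhibitor), 3 µM CHIR99021 (a GSK3 inhibitor) and the reducing agent β-mercaptoethanol, and both received retinoic acid after LIF and the inhibitors were withdrawn. The sources used here do not say how many knockout clones there were or where the deletion lies. The series title links the cluster to HoxB genes and neural progenitors. As nothing states that the libraries came from separate clones, the p-values measure the spread between these libraries.

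NRF2, encoded by Nfe2l2, is a transcription factor that KEAP1 binds and delivers to a ubiquitin ligase. Oxidants and electrophiles modify KEAP1, and NRF2 then accumulates, pairs with a small Maf protein and binds antioxidant response elements in genes for glutathione synthesis, thioredoxin reduction, NADPH supply and heme breakdown. Glutathione and thioredoxin pass electrons from NADPH to the peroxidases, and iron, which turns peroxide into reactive radicals, is controlled mainly after transcription, through RNA hairpins read by iron regulatory proteins.

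The libraries held 7780368 to 9472916 reads assigned to genes. KO replicate 1 stood apart within its group: its counts differed from those of the other KO libraries with a chi-square per degree of freedom of 5.54 and 6.61, against 2.34 between those other libraries and 1.88 to 2.01 among the WT libraries. It also held 1.04% of its counts in a group of loci set apart for ribosomal RNA reads, against 0.0726 to 0.118% in the other 5 libraries. That group includes the protein-coding gene Lars2. Mitochondrial genes took 1.67 to 1.73% of counts in WT and 2.58 to 2.89% in KO. The design text calls the cells neural progenitors, and the labels call them embryonic stem cells. The summed level of 8 neural progenitor markers was 251.3 to 262.2 CPM (counts scaled for library size) in WT and 47.8 to 58.2 CPM in KO, most of it from Nes, with 3 markers lower and Pax6 higher, while Fabp7 and Hes5 were at 0 or 1 count in each library. The 14 markers of visceral or parietal endoderm summed to 2835 to 2893 CPM in WT and 7603 to 7676 CPM in KO, with 11 higher and 1 lower in KO, and the 7 pluripotency markers to 786.9 to 818.5 and 562.3 to 572.5 CPM, with 4 lower and 3 higher, among them Pou5f1, which was at 184.0 ± 5.36 CPM in WT and 200.6 ± 14.9 CPM in KO (SD, n = 3). The 7 neuron markers summed to 133.4 to 142.7 CPM in WT and 75.2 to 77.6 CPM in KO, with Tubb3 and Stmn2 lower and Map2 higher. The 8 mesoderm or mesenchyme markers summed to 561.9 to 577.9 and 369.0 to 374.6 CPM, with Col1a1, Col3a1 and Twist1 lower and Pdgfra and Foxf1 higher. The 6 trophoblast markers summed to 93.1 to 96.6 and 58.1 to 59.3 CPM, with 4 lower, Tfap2c higher and Elf5 at 0 or 1 count. Of the 5 macrophage markers, Ptprc, Adgre1 and C1qa were at 0 counts in all 6 libraries, and the summed 35.0 to 37.4 CPM in WT and 25.4 to 27.1 CPM in KO came from Csf1r and Cd68. The 8 erythroid markers summed to at most 3.75 CPM in any library, with Hba-x, Hbb-bh1 and Hbb-y at 0 or 1 count. The part of these marker differences in the results below was not tested, and fewer cells of a type and less RNA per cell cannot be told apart in bulk RNA.

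In KO cells, 26 of the 47 tested members were lower and 10 were higher than in WT cells, at an adjusted p under 0.05 in edgeR's quasi-likelihood test, and 11 did not pass. The same rule called 68.6% of all tested genes, 34.5% higher and 34.0% lower, so a change as such was common, and 76.6% of the members were called. The members leaned to the lower side, with 55.3% lower and 21.3% higher. As the set was chosen with earlier results of these data known, the lean describes this set and was not tested. Their median log2 fold change, knockout over wild type, was -0.20, against 0.01 over all tested genes. Changes of at least 2-fold were called lower for 10 members (9.47% of all tested genes) and higher for 6 (11.5% of all tested genes). Among the 10 higher members and these 6 are Gstt1 and Mgst1, which entered the test only through KO, so that the filter fixed their direction. In 38 members the 3 WT and the 3 KO values did not overlap, which was so for 70.9% of all tested genes. Without KO replicate 1, 28 members were lower and 11 higher, beside 5280 lower and 5305 higher of all genes tested in that fit.

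**Figure D1:**
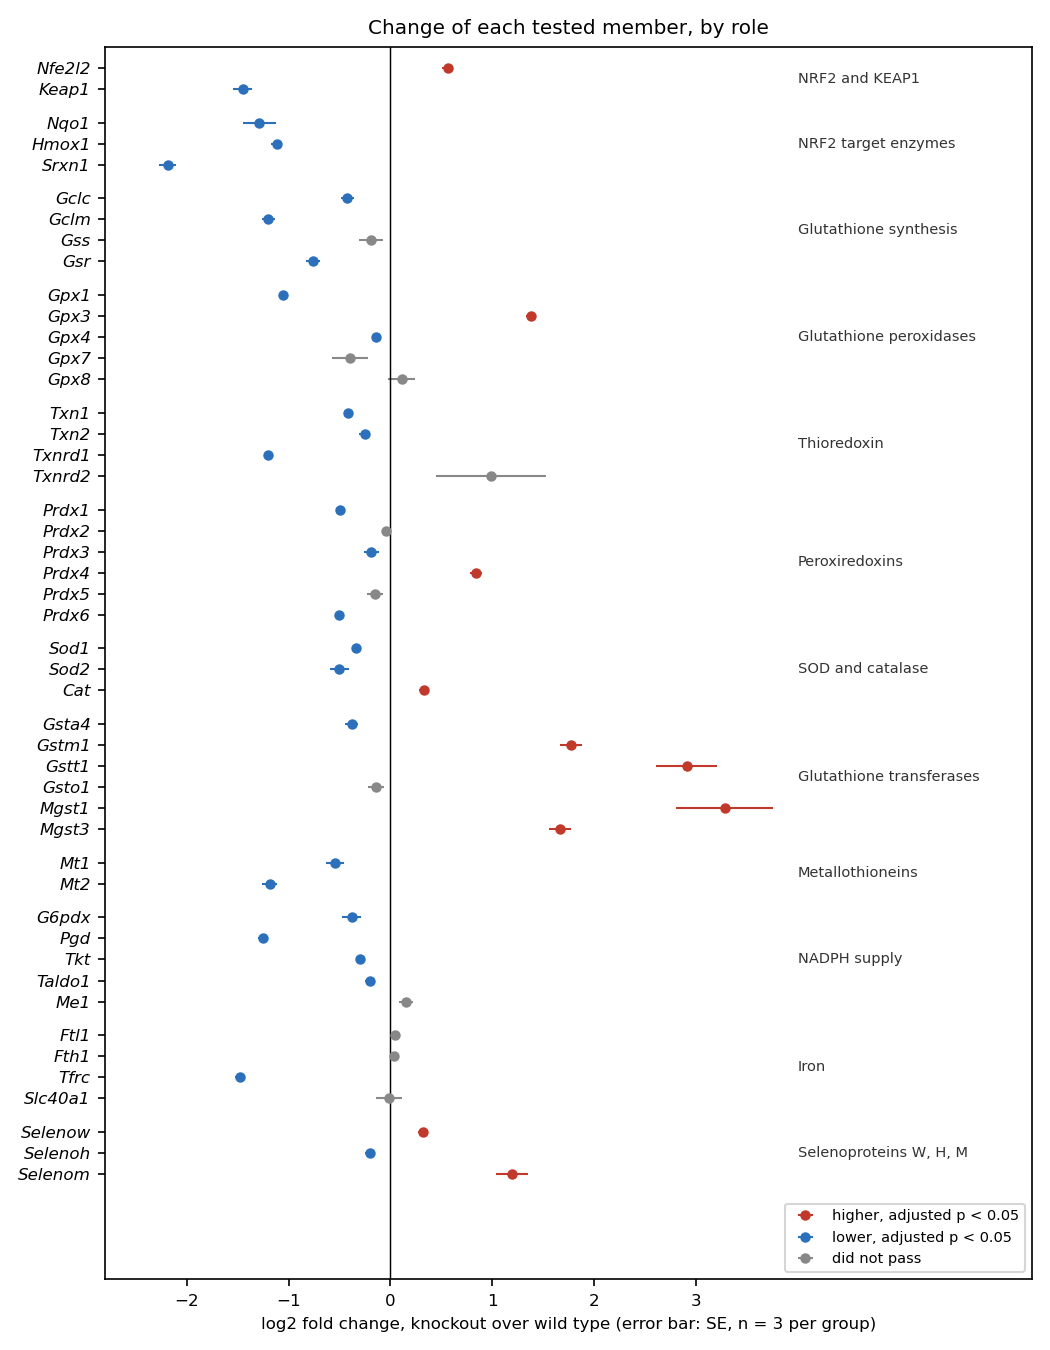
Log2 fold change (knockout over wild type, x axis) of each of the 47 tested members, grouped by role, with the SE as error bar (n = 3 libraries per group). Srxn1 lies farthest to the left at -2.19 and Mgst1 farthest to the right at 3.28, and Gpx3, at 1.38, is the highest of the peroxidases.

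The factor and its inhibitor moved in opposite directions. Nfe2l2 (ENSMUSG00000015839, GRCm38 chr2:75675513-75704641, minus strand) was at 73.8, 80.1 and 80.3 CPM in the WT libraries and at 112.5, 121.2 and 112.0 CPM in the KO libraries. Every KO value lay above every WT value, and the log2 fold change was 0.56 (SE 0.0517, adjusted p = 4.02e-10). Keap1 (chr9:21229730-21239361, minus strand) was at 54.5, 53.3 and 53.6 CPM in WT and at 21.6, 20.2 and 17.2 CPM in KO. It was 2.74-fold lower in KO, with a log2 fold change of -1.45 (SE 0.0927, adjusted p = 2.83e-13). Per kilobase of exon, the ratio of Nfe2l2 to Keap1 transcript was 1.67, 1.86 and 1.85 in WT and 6.43, 7.41 and 8.04 in KO. These are transcript levels, and NRF2 protein was not measured. Of Keap1's exon length, 10.9% overlaps Gm16754 on the other strand, whose log2 fold change was -1.25. How the authors set strand when counting is not given, so reads from overlapping exons cannot be told apart. The same limit holds for all 10 members with such overlap, among them Prdx5 (19.1% of exon length), Gss (15.4%), G6pdx (13.6%) and Prdx2 (11.5%).

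Although Nfe2l2 was higher and Keap1 lower, the 3 genes often measured as a readout of NRF2 activity were all lower in KO. Srxn1 (chr2:152105516-152111376), sulfiredoxin, which repairs over-oxidised peroxiredoxins, was at 75.3, 76.7 and 70.8 CPM in WT and at 17.4, 14.3 and 17.1 CPM in KO. This was a 4.56-fold difference and the largest fall among the members (log2 fold change -2.19, SE 0.0878, adjusted p = 1.75e-17). Hmox1 (chr8:75093621-75100589), heme oxygenase 1, which breaks heme down to biliverdin, iron and carbon monoxide, was at 100.5, 104.7 and 108.8 CPM in WT and at 46.9, 47.9 and 49.7 CPM in KO (log2 fold change -1.12, SE 0.0586, adjusted p = 4.85e-15). Nqo1 (chr8:107388225-107403206), a quinone reductase, was at 13.8, 16.8 and 15.2 CPM in WT and at 6.96, 6.49 and 5.39 CPM in KO (log2 fold change -1.29, SE 0.162, adjusted p = 1.13e-07). In none of the 3 genes did the groups overlap.

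**Figure D2:**
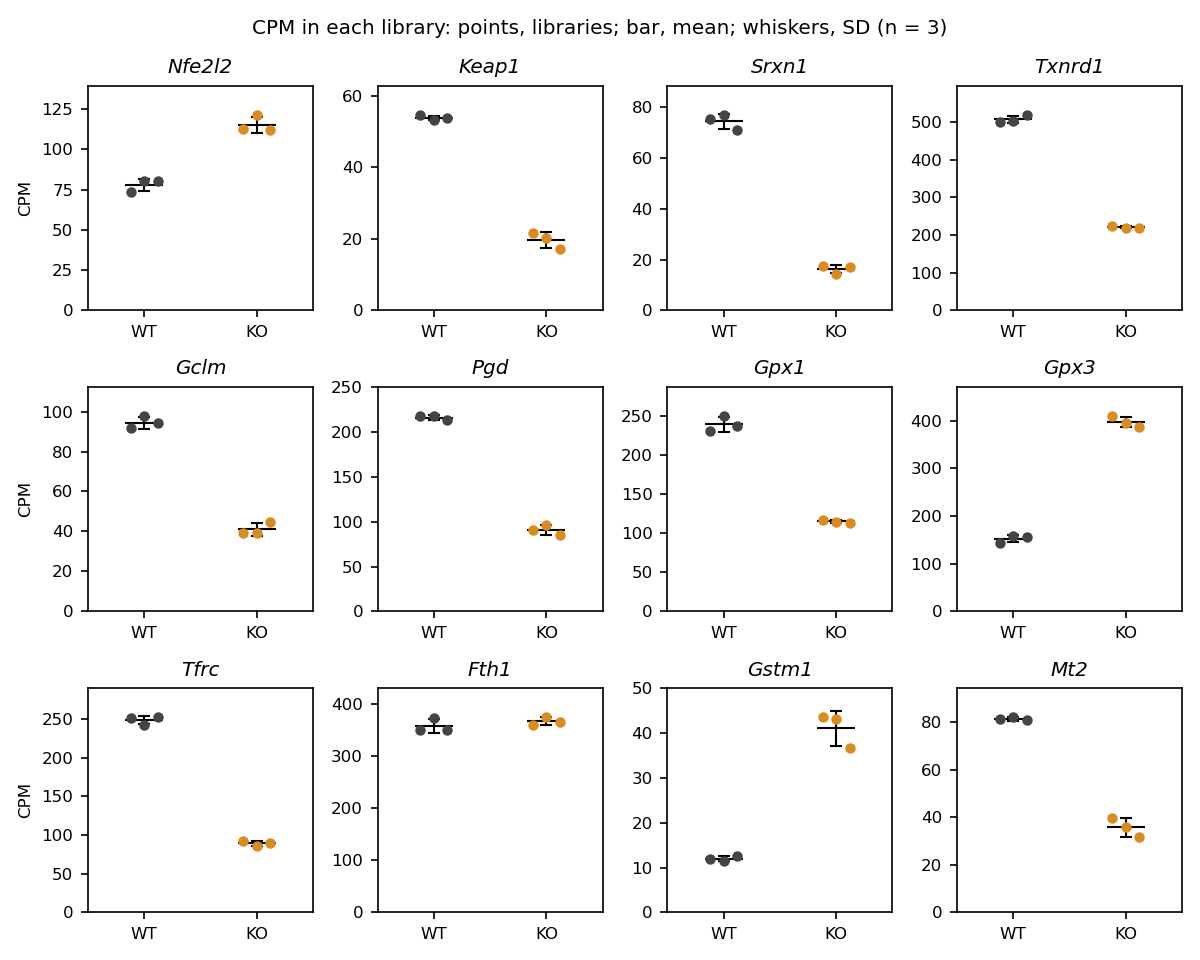
CPM (y axis, from 0) of 12 members in each of the 3 WT and 3 KO libraries, with points for libraries, a bar for the mean and whiskers for the SD. The groups are apart in every panel except Fth1, where the KO values of 359.2, 374.4 and 366.1 CPM lie among WT values of 349.2 to 372.7 CPM or just above.

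The core letters of the antioxidant response element, TGACNNNGC on either strand, were searched in the RefSeq promoter table (GRCm38.p6, 250 bases before to 50 after each start), which held 42 of the 49 members. Of these, 11 had a match (26.2%), against 14.0% of all 27025 genes in the table. They were Nfe2l2, Srxn1, Gclm, Prdx1, Pgd, Mgst1, Mt2, Me1, Txnrd1, Sod1 and G6pdx. In KO, 8 of the 11 were lower, 2 were higher and 1 did not pass, and of the 30 tested members with a promoter and no match, 13 were lower, 8 higher and 9 did not pass. Over all tested genes, 36.9% of the 1838 genes with one were higher and 34.6% lower, against 35.7 and 35.9% of the 9141 without. A match is a description of letters, not a binding site. The 250 bases before the start are given for 3 members that fell and that work at different steps (glutathione synthesis, peroxide removal, thioredoxin reduction), with the match in capitals.
Gclm: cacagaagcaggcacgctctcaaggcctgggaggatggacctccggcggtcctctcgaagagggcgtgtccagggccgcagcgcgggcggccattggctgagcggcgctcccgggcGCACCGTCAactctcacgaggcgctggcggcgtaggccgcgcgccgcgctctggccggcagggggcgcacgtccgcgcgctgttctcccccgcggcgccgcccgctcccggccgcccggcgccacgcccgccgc
Prdx1: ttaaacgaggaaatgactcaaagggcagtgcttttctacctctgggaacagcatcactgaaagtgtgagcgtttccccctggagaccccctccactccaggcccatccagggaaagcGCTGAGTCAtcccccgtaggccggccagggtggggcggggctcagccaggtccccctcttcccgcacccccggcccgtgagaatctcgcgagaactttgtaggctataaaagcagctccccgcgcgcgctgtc
Txnrd1: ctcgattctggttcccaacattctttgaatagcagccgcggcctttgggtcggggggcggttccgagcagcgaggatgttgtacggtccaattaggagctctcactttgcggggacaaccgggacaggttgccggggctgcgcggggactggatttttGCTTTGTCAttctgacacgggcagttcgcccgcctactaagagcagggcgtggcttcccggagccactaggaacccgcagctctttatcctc
The windows are chr3:122245307-122245556 for Gclm, chr4:116685349-116685598 for Prdx1 and chr10:82858956-82859205 for Txnrd1, the last being 1 of 3 promoters the table lists for that gene, all on the plus strand and printed 5′ to 3′. The Gclm match spans bases -134 to -126 from the start and shares letters with a match to the metal response element described below. The Prdx1 match, at -133 to -125, contains the letters TGACTCA of an AP-1 site on the same strand, which 5 of the 42 members and 5.95% of all genes carry. The Txnrd1 match lies at -92 to -84.

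Both subunits of the enzyme of the regulated step of glutathione synthesis had less RNA in KO. Gclm (chr3:122245557-122270732), the modifier subunit of glutamate-cysteine ligase, was at 91.6, 97.6 and 94.2 CPM in WT and at 39.2, 39.2 and 45.0 CPM in KO (log2 fold change -1.20, SE 0.0662, adjusted p = 1.47e-14). Gclc, the catalytic subunit of the same enzyme, was at 66.6, 69.6 and 67.4 CPM in WT and at 48.8, 53.7 and 49.4 CPM in KO, a smaller fall (log2 fold change -0.42, SE 0.0665, adjusted p = 3.78e-06). The subunits thus changed unequally: the per-kilobase ratio of Gclc to Gclm was 1.21, 1.19 and 1.19 in WT and 2.08, 2.29 and 1.84 in KO, with no overlap. Gsr, glutathione reductase, which returns oxidised glutathione to its reduced form, was at 70.6, 69.6 and 69.7 CPM in WT and at 44.7, 38.3 and 40.8 CPM in KO (log2 fold change -0.76, SE 0.0711, adjusted p = 5.10e-10). Gss, the enzyme of the second step of synthesis, did not pass, with 22.2 to 28.0 CPM in WT, 19.4 to 23.8 CPM in KO and a 95% interval of the log2 fold change from -0.43 to 0.06 (adjusted p = 0.162).

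The glutathione peroxidases, a family named for reducing peroxides with glutathione, split between the cytosolic and the secreted enzyme. Gpx1 (chr9:108338903-108340343), mainly cytosolic, was at 231.6, 250.04 and 237.9 CPM in WT and at 117.8, 115.0 and 113.8 CPM in KO (log2 fold change -1.05, SE 0.0451, adjusted p = 7.02e-17). Gpx3 (chr11:54902453-54910377), the secreted plasma form, was at 144.4, 157.4 and 155.7 CPM in WT and at 408.9, 394.9 and 386.6 CPM in KO (log2 fold change 1.38, SE 0.0443, adjusted p = 1.47e-19). Their order reversed, with a per-kilobase ratio of Gpx3 to Gpx1 of 0.496, 0.500 and 0.520 in WT and 2.76, 2.73 and 2.70 in KO. Gpx4, which reduces lipid peroxides in membranes and holds off ferroptosis, fell from 272.4 ± 4.46 to 247.3 ± 8.30 CPM (SD, n = 3), a log2 fold change of -0.14 (adjusted p = 0.00468). Of Gpx4's 50-base stretches, 34.7% also occur in another gene, mainly the pseudogene Gpx4-ps2, so its count is uncertain. Gpx7 and Gpx8, peroxidases of the endoplasmic reticulum, did not pass. Gpx7 was at 8.59 to 11.9 CPM in WT and 6.61 to 9.53 CPM in KO (log2 fold change -0.40, adjusted p = 0.0514), and Gpx8 at 13.3 to 15.3 and 13.1 to 17.3 CPM (log2 fold change 0.11, adjusted p = 0.492).

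Gpx1, Gpx3 and Gpx4 are selenoproteins, as are both thioredoxin reductases and 3 further members, so 8 of the 49 carry selenocysteine at a UGA codon that would otherwise end translation. The codon and its surroundings, read from the GENCODE M21 transcripts, are given for the members with the largest changes, with the TGA in capitals.
Gpx1: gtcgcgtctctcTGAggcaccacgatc
Gpx3: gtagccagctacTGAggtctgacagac
Txnrd1: cagtctggctgcTGAggt
Selenom: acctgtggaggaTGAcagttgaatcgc
The Gpx1 stretch is chr9:108339439-108339465 and its TGA is codon 47 of 201 in the reading frame. For Gpx3 it is chr11:54907244-54907270 with codon 73 of 226, for Txnrd1 chr10:82896025-82896042 with codon 612 of 613, and for Selenom chr11:3516261-3516287 with codon 48 of 145. In Txnrd1 the selenocysteine is the last residue but 1, where it forms the C-terminal active site. Of the 8 selenoprotein members, 3 rose, 4 fell and 1 did not pass (37.5% higher and 50.0% lower, against 34.5 and 34.0% of all tested genes), and nothing is read from a count of 8.

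Selenow, selenoprotein W, a small redox protein of the cytosol, rose from 145.3, 161.4 and 154.1 CPM in WT to 192.3, 191.3 and 191.1 CPM in KO (log2 fold change 0.32, SE 0.0457, adjusted p = 9.49e-07). Selenom, a redox protein of the endoplasmic reticulum, rose from 10.9, 6.81 and 11.7 CPM to 20.4, 23.7 and 22.6 CPM (log2 fold change 1.20, SE 0.155, adjusted p = 1.77e-07). Selenoh, a nuclear selenoprotein, fell from 114.1 ± 2.76 to 99.1 ± 4.23 CPM (SD, n = 3), a log2 fold change of -0.20 (adjusted p = 0.000567). The groups did not overlap in any of the 3.

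In the thioredoxin system the cytosolic reductase fell by more than 2-fold and both thioredoxins by less. Txnrd1 (chr10:82833951-82897712), which recharges thioredoxin with electrons from NADPH, was at 500.9, 503.9 and 518.2 CPM in WT and at 223.5, 219.2 and 219.5 CPM in KO (log2 fold change -1.20, SE 0.0383, adjusted p = 1.26e-19). Its substrate Txn1 fell less, from 207.7 ± 9.99 to 156.1 ± 5.82 CPM (SD, n = 3; log2 fold change -0.41, adjusted p = 1.63e-08). The mitochondrial thioredoxin Txn2 fell from 93.1 ± 5.52 to 78.2 ± 1.51 CPM (log2 fold change -0.25, adjusted p = 0.000233). Txnrd2, the mitochondrial reductase, had only 4, 12 and 14 counts in WT and 24, 2 and 30 in KO. KO replicate 2 lies below all WT libraries and the other KO libraries above them, and Txnrd2 did not pass (log2 fold change 0.98, 95% interval -0.13 to 2.1, adjusted p = 0.109). It passed without KO replicate 2 (log2 fold change 1.51, adjusted p = 0.00360) and with no filter beyond 1 count (0.97, adjusted p = 0.0426).

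Peroxiredoxins, most of which reduce peroxide with electrons from thioredoxin, changed by less than 2-fold in every case. Prdx1, of the cytosol, fell from 609.5, 617.5 and 635.1 CPM to 427.8, 417.1 and 474.5 CPM (log2 fold change -0.50, SE 0.0407, adjusted p = 4.19e-11). Prdx6, the 1-cysteine member of the family, fell from 263.4 ± 7.96 to 186.1 ± 1.48 CPM (SD, n = 3; log2 fold change -0.50, adjusted p = 7.11e-11). Prdx4, the peroxiredoxin of the endoplasmic reticulum, rose instead, from 57.7, 58.5 and 64.3 CPM to 113.0, 103.4 and 106.8 CPM (log2 fold change 0.84, SE 0.0574, adjusted p = 1.10e-12). Mitochondrial Prdx3 was at 47.7 to 53.9 CPM in WT and 43.9 to 45.5 CPM in KO (log2 fold change -0.19, adjusted p = 0.0276). That call was lost with upper-quartile scaling (adjusted p = 0.0725) and without WT replicate 1 (0.125), WT replicate 2 (0.0642), KO replicate 2 (0.0519) or KO replicate 3 (0.0744). Prdx2 (log2 fold change -0.04, 95% interval -0.13 to 0.04) and Prdx5 (-0.15, interval -0.31 to 0.00) did not pass.

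Among the enzymes that remove superoxide and hydrogen peroxide without glutathione or thioredoxin, the dismutases fell and catalase rose. Cytosolic Sod1 fell from 253.8 ± 2.06 to 201.2 ± 0.937 CPM (SD, n = 3; log2 fold change -0.34, adjusted p = 6.31e-08), and mitochondrial Sod2 from 44.4 ± 1.97 to 31.3 ± 3.82 CPM (log2 fold change -0.50, adjusted p = 2.91e-05). Cat, the peroxisomal catalase, rose from 71.3, 73.6 and 71.3 CPM to 88.9, 93.0 and 90.0 CPM (log2 fold change 0.33, SE 0.0534, adjusted p = 5.74e-06). No dismutase or catalase group overlapped with the other. Of Sod2's 50-base stretches, 21.0% also occur in other genes, so its count is uncertain. Sod3, the extracellular dismutase, had 1, 1 and 2 counts in WT and 10, 3 and 3 in KO and was too low to test.

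**Figure D3:**
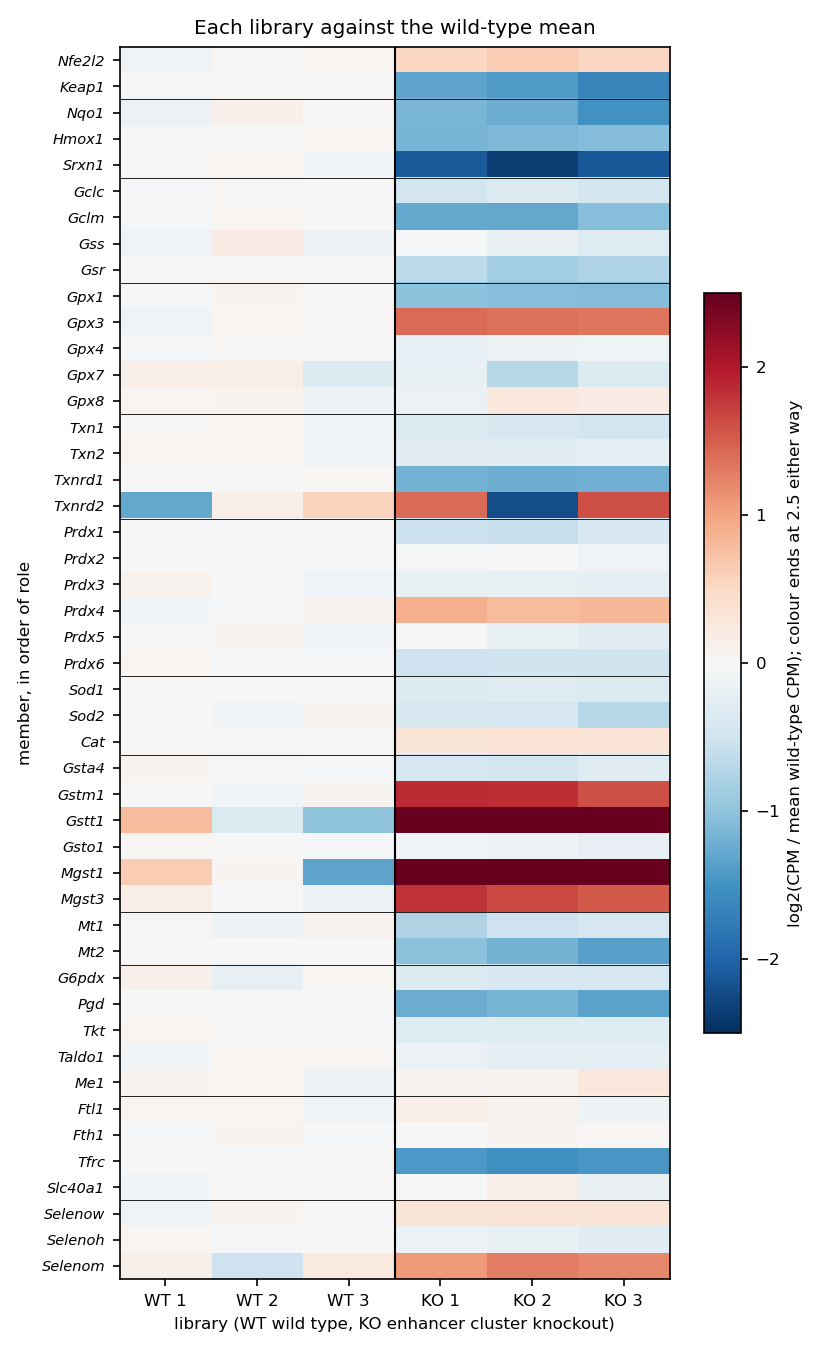
Log2 ratio of the CPM in each library (x axis) to the mean of the 3 WT libraries for the 47 tested members (y axis, ordered by role), red for higher and blue for lower, with the colour scale ending at 2.5 in either direction. The 3 KO columns have like colours for most members, and Txnrd2, with 24, 2 and 30 counts in KO, is the clearest exception.

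Of the 6 tested glutathione transferases, which attach glutathione to electrophiles, Gstm1, Mgst3, Gstt1 and Mgst1 were higher, Gsta4 was lower and Gsto1 did not pass. Gstm1 (chr3:108012255-108017973, minus strand) was at 11.9, 11.5 and 12.6 CPM in WT and at 43.5, 43.1 and 36.7 CPM in KO, 3.42-fold higher (log2 fold change 1.77, SE 0.112, adjusted p = 2.19e-13). Mgst3, a membrane-bound family member, was at 16.6, 14.3 and 13.3 CPM in WT and at 51.5, 46.2 and 42.6 CPM in KO (log2 fold change 1.67, SE 0.108, adjusted p = 3.69e-13). In Gstm1, 18.9% of the 50-base stretches are shared with other genes, so its count is uncertain. Reads aligned to more than 1 place had a tally of their own, 13.8 to 15.0% of each library, which was left out. Gstt1 had 18, 9 and 5 counts in WT and 72, 83 and 72 in KO (log2 fold change 2.91, SE 0.297, adjusted p = 2.80e-09). Membrane-bound Mgst1 had 4, 3 and 1 counts in WT and 21, 27 and 28 in KO (log2 fold change 3.28, SE 0.475, adjusted p = 1.07e-06). Gstt1 and Mgst1 reached the filter of 1.195 CPM in 3 libraries only through the KO group, so their direction was fixed by the filter, and the count of higher transferases is not read as a lean of the family. Gsta4, which acts on the lipid peroxidation product 4-hydroxynonenal, fell from 67.7 ± 2.94 to 51.9 ± 3.00 CPM (SD, n = 3; log2 fold change -0.38, adjusted p = 2.00e-05). Gsto1 did not pass (log2 fold change -0.14, 95% interval -0.31 to 0.02), and Gstp1 had 1 count in KO replicate 1 and 0 in the other libraries. Gstp1 shares 33.7% of its 50-base stretches with close copies, and Gstp2, Gstp3 and Gstp-ps were at 0 in all libraries.

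Metallothioneins, cysteine-rich proteins that bind zinc and copper, were lower in KO. Mt2 (chr8:94172664-94173568) was at 81.1, 82.0 and 80.7 CPM in WT and at 39.8, 35.9 and 31.6 CPM in KO (log2 fold change -1.19, SE 0.0746, adjusted p = 2.10e-13). Mt1 was at 55.5, 50.2 and 58.3 CPM in WT and at 32.5, 38.3 and 41.0 CPM in KO (log2 fold change -0.55, SE 0.0867, adjusted p = 4.13e-06). Neither gene overlapped between groups. Of Mt2's exon length, 73.5% lies opposite Gm45774, which was at 91.5, 78.9 and 80.7 CPM in WT and 30.8, 34.8 and 32.6 CPM in KO, and the transcripts cannot be told apart where they overlap. Metallothionein genes are switched on through metal response elements, whose letters TGCACNC or TGCGCNC were found on either strand in 14 of the 42 member promoters (33.3%) and in those of 28.2% of all genes. The Mt2 promoter is shown because it holds 3 matches, in capitals, in the 250 bases before the start (chr8:94172368-94172617, plus strand).
Mt2: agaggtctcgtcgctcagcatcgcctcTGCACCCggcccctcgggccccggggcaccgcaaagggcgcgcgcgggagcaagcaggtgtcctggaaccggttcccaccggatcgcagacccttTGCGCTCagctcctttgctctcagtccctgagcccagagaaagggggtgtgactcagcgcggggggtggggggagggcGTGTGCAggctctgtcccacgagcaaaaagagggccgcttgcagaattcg
It also holds, in lower case at bases -79 to -71, the antioxidant response element letters counted above, which contain an AP-1 match.

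NADPH, the electron source of both reduction systems, comes largely from the pentose phosphate pathway, and the 4 members that belong to it were lower. Other genes of the pathway outside the set were not. Rpia (log2 fold change 0.88, adjusted p = 4.15e-06) and Rpe (0.17, adjusted p = 0.0296), which interconvert pentose phosphates, were higher. Pgls, the lactonase between G6pdx and Pgd, did not pass. Rpia, Rpe and Pgls are named for their role, with their values known. Pgd (chr4:149149991-149166771, minus strand), 6-phosphogluconate dehydrogenase, was at 217.6, 217.6 and 212.9 CPM in WT and at 91.0, 96.5 and 84.9 CPM in KO, 2.38-fold lower (log2 fold change -1.25, SE 0.0489, adjusted p = 1.03e-17). G6pdx, the enzyme before it, fell from 42.5 ± 4.87 to 32.6 ± 1.09 CPM (SD, n = 3; log2 fold change -0.38, adjusted p = 0.000694). In the non-oxidative branch, Tkt, transketolase, fell from 299.3 ± 9.31 to 243.9 ± 0.381 CPM (log2 fold change -0.30, adjusted p = 5.28e-07). Taldo1, transaldolase, fell from 183.3 ± 8.27 to 159.1 ± 5.66 CPM (log2 fold change -0.20, adjusted p = 0.000372). Me1, malic enzyme, which makes NADPH outside this pathway, did not pass (62.0 to 71.4 CPM in WT, 71.2 to 83.2 CPM in KO, log2 fold change 0.15, adjusted p = 0.0539). Of the 50-base stretches of Me1, 28.3% also occur in other genes, and of those of G6pdx 16.9%, so both counts are uncertain.

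Of the 4 iron genes, the importer fell and storage and export did not pass the test. Tfrc (chr16:32608920-32632794), the transferrin receptor that brings iron into the cell, was at 250.5, 242.3 and 252.0 CPM in WT and at 92.0, 85.4 and 90.3 CPM in KO, 2.78-fold lower (log2 fold change -1.48, SE 0.0462, adjusted p = 9.39e-20). Fth1 (chr19:9980598-9985098), the ferritin heavy chain, was at 350.9, 372.7 and 349.2 CPM in WT and at 359.2, 374.4 and 366.1 CPM in KO, with a log2 fold change of 0.04 and a 95% interval from -0.05 to 0.12. Ftl1, the ferritin light chain, was at 468.6, 470.6 and 423.0 CPM in WT and at 510.6, 480.0 and 415.1 CPM in KO (log2 fold change 0.04, interval -0.06 to 0.15). For ferritin these intervals leave out changes near the size seen in Tfrc. Slc40a1, ferroportin, the iron exporter, was at 15.1, 16.3 and 16.3 CPM in WT and at 15.5, 17.8 and 14.0 CPM in KO (log2 fold change -0.01, interval -0.28 to 0.25). The direction of Ftl1 and of Slc40a1 turned in some alternatives, and without KO replicate 3 Ftl1 was higher in KO (log2 fold change 0.12, adjusted p = 0.0112). Ftl1 is uncertain in addition because 58.4% of its 50-base stretches occur in other genes and 26.5% of its exon length lies opposite Gm10252. Gm10252 had a level close to that of Ftl1, at 411.8, 405.3 and 367.1 CPM in WT and 434.8, 394.8 and 339.7 CPM in KO. The 2 transcripts cannot be told apart where they overlap. The per-kilobase ratio of Tfrc to Fth1 was 0.400, 0.365 and 0.405 in WT and 0.144, 0.128 and 0.138 in KO.

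All 4 iron members carry the letters of an iron responsive element, a hairpin with a CAGTGN loop, in an untranslated region, when 5 paired stem bases are required. The same search found a match in 123 of 21877 protein-coding genes (0.562%). The hairpins are shown because iron regulatory proteins that bind them act in opposite ways: at the 5′ end they block translation, and at the 3′ end of Tfrc they protect the RNA from decay. The loop is in capitals.
Fth1, 5′ UTR: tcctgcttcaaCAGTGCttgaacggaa
Ftl1, 5′ UTR: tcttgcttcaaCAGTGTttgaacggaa
Slc40a1, 5′ UTR: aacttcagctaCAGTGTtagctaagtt
Tfrc, 3′ UTR, site 1: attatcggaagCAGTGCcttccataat
Tfrc, 3′ UTR, site 2: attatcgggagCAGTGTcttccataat
Tfrc, 3′ UTR, site 3: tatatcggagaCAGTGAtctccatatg
Tfrc, 3′ UTR, site 4: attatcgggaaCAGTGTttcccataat
The sites are at chr19:9982733-9982759 (plus strand) for Fth1, chr7:45459780-45459806 (minus) for Ftl1 and chr1:45925466-45925492 (minus) for Slc40a1. The Tfrc sites, on the plus strand, are at chr16:32631220-32631246, chr16:32631599-32631625, chr16:32631664-32631690 and chr16:32631711-32631737. Tfrc, with its matches in the 3′ UTR, was the iron member whose RNA fell, and the 3 with a match in the 5′ UTR were those that did not pass. With so few genes, and Tfrc alone having matches in the 3′ UTR, nothing is read from this. Activity of the iron regulatory proteins was not measured, and their part in these values was not tested.

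Exon length was merged over all annotated transcripts of a gene, so ranks between genes depend on the annotation as well. Compared per kilobase of this length, Ftl1, whose count is uncertain, ranked first in both groups, at 338.9 CPM per kilobase in WT and 349.7 in KO. Selenow followed at 208.7 and 260.3. Without division by length, Prdx1 was above Ftl1 in WT (620.7 against 454.1 CPM) and below it in KO (439.8 against 468.6 CPM). Gpx3 went from the eleventh place of the 49 in WT (84.1 CPM per kilobase) to the third in KO (218.9). Gpx1 went the other way, from the fifth (166.4) to the ninth (80.2), and Txnrd1 from the twelfth (71.6) to the twentieth (31.2). Prdx1 (204.0 in WT, 144.5 in KO) and Txn1 (197.6 and 148.5) remained among the 5 highest per kilobase in both groups.

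**Figure D4:**
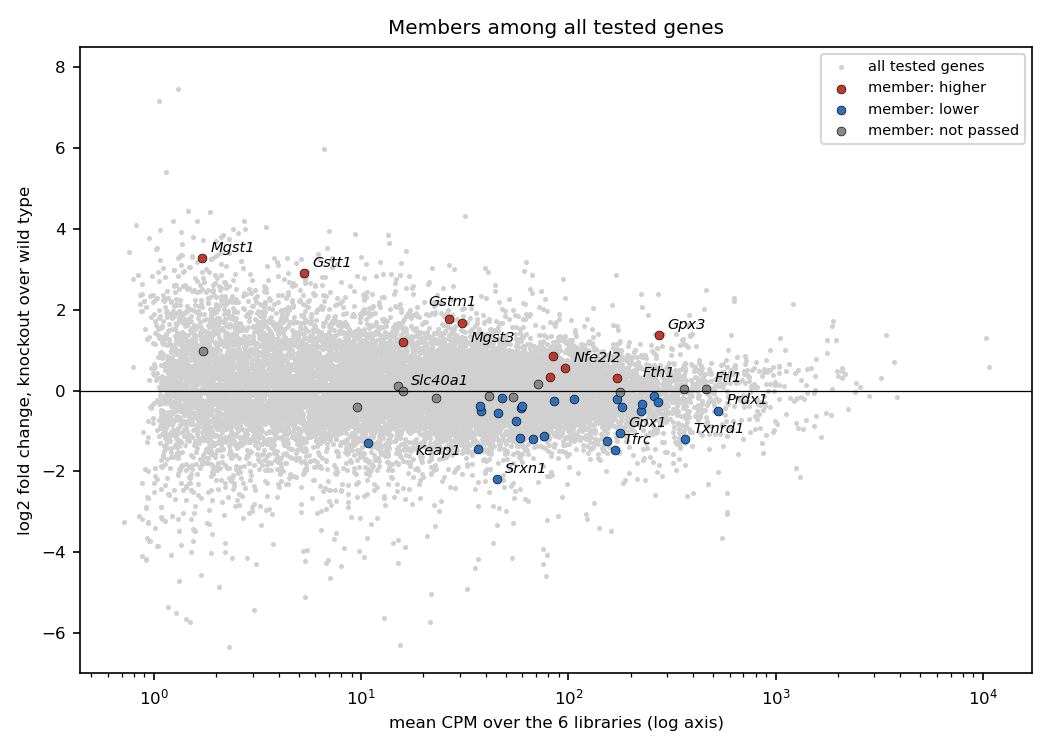
Log2 fold change (knockout over wild type, y axis) against the mean CPM over the 6 libraries (log x axis) for the 15816 tested genes, in grey, with the 47 tested members in red (higher), blue (lower) or dark grey (did not pass). The members that fell are mostly genes of moderate to high level such as Txnrd1 and Tfrc, and the largest rises, Mgst1 and Gstt1, are at low level.

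Other genes of the same pathways, 163 in 9 lists, were read from the same fit to place the members. Of the 136 tested, 57 were higher (41.9%), 43 were lower (31.6%) and 36 did not pass, with a median log2 fold change of 0.04. Over all tested genes, 34.5% were higher and 34.0% lower, with a median of 0.01. The counts per list that follow are to be read beside these shares, and no list was tested as a set. Other NRF2 partners and regulators had 6 lower, 2 higher and 4 not passing of 12. Mafg, a small Maf partner of NRF2, fell (log2 fold change -0.95, adjusted p = 1.82e-15), as did Rbx1, the RING subunit of the ligase that KEAP1 recruits (-0.55, adjusted p = 1.14e-09). Bach1, a repressor that competes for the same DNA elements, rose (0.41, adjusted p = 9.90e-08). Other known NRF2 target genes did not move one way: 7 were higher, 6 lower and 2 did not pass of 15 tested. Of the 6, Gpx2 reached the filter of 1.195 CPM in 3 WT libraries and only 1 KO library. Of the 7, Htatip2 reached it in 2 WT and 3 KO libraries. The filter thus bears on the direction of both. Among these target genes, Slc7a11, the transporter that imports cystine for glutathione synthesis, was 7.05-fold lower in KO (log2 fold change -2.82, SE 0.141, adjusted p = 1.80e-15). It was at 31.2, 29.5 and 31.9 CPM in WT and at 3.99, 4.62 and 4.45 CPM in KO. Akr1b3, aldose reductase, fell (-0.81, adjusted p = 4.96e-14), and Abcc1, an exporter of glutathione conjugates, rose (0.66, adjusted p = 3.63e-11).

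Of the remaining glutathione genes, 14 were higher, 2 lower and 7 did not pass of 23 tested. This was 60.9% higher and 8.70% lower, against 34.5 and 34.0% of all tested genes. Beside Oplah, 5-oxoprolinase (log2 fold change 1.67, adjusted p = 2.37e-15), those higher included Gstm2, Gstm4, Gstm5, Gstm6, Gstm7, Gstt2, Gstt3 and Gstz1, transferases like the members that rose and named after their values were seen. Gstm6 and Gstm7 were under the filter in every WT library and entered the test only through KO, so their direction was fixed as well. The Gstm genes are close copies, so their counts are uncertain and are not read as independent. Those lower were Chac1, which degrades glutathione (-1.93, adjusted p = 1.97e-13), and Glrx5, a mitochondrial glutaredoxin (-0.65, adjusted p = 3.30e-08). Other thioredoxin and repair genes had 5 higher, 6 lower and 7 not passing of 18. Txnip, which binds and inhibits thioredoxin, was at 222.2, 205.5 and 212.8 CPM in WT and at 1030, 1053 and 1045 CPM in KO, 4.88-fold higher (log2 fold change 2.29, SE 0.0356, adjusted p = 3.28e-26), although 19.4% of its exon length lies opposite Gm15441. Sesn2, a stress-induced sestrin, fell (-0.99, adjusted p = 5.53e-16), as did Txnl1, a thioredoxin-like protein (-0.80, adjusted p = 3.57e-14).

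Other NADPH genes had 6 higher, 5 lower and 2 not passing of 13 tested. Idh2, mitochondrial isocitrate dehydrogenase, rose (log2 fold change 0.66, adjusted p = 1.62e-12), and the folate enzymes Mthfd1 (-0.54, adjusted p = 3.49e-11) and Mthfd1l (-0.71, adjusted p = 2.53e-10) fell. Other iron genes had 8 higher, 6 lower and 5 not passing of 19, and of the 8, Tfr2 entered the test only through KO. Fbxl5, which marks iron regulatory protein 2 for degradation when iron is present, was at 77.0, 77.9 and 75.2 CPM in WT and at 194.3, 200.4 and 209.2 CPM in KO, 2.62-fold higher (log2 fold change 1.39, SE 0.0477, adjusted p = 6.10e-19). Slc39a8, a metal importer, rose (1.52, adjusted p = 2.25e-12), and Slc11a2, the divalent metal transporter DMT1, fell (-0.57, adjusted p = 1.17e-06). Aco1 and Ireb2, which encode the iron regulatory proteins, did not pass and are named for their role.

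Heme synthesis genes had 5 higher, 4 lower and 2 not passing of 11 tested. Ppox (log2 fold change 0.85, adjusted p = 8.13e-11) and Cpox (0.41, adjusted p = 8.61e-06), late enzymes of the pathway, rose, and Flvcr1, listed for heme export, fell (-1.05, adjusted p = 1.42e-07). Other selenoproteins and their machinery had 7 higher, 5 lower and 6 not passing of 18. Of the 5, Dio3 reached the filter of 1.195 CPM in 3 WT and 2 KO libraries, so the filter bears on its direction. Selenop, the secreted selenium carrier, rose from 2.84, 1.49 and 1.72 CPM to 24.9, 26.2 and 24.2 CPM (log2 fold change 3.64, SE 0.188, adjusted p = 3.69e-15), with 15.5% of its exon length opposite Ccdc152. Sephs1 (-1.14, adjusted p = 1.29e-13) and Selenot (-0.57, adjusted p = 1.49e-11) fell. Genes of zinc and metallothionein regulation had 3 higher, 3 lower and 1 not passing of 7 tested. The zinc importer Slc39a6 fell (-1.28, adjusted p = 8.49e-15), and Slc39a10 (0.61, adjusted p = 6.09e-11) and Slc39a4 (1.20, adjusted p = 5.40e-10) rose. Mtf1, which encodes the factor that binds metal response elements, was among the 3 lower and is named for its role.

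**Figure D5:**
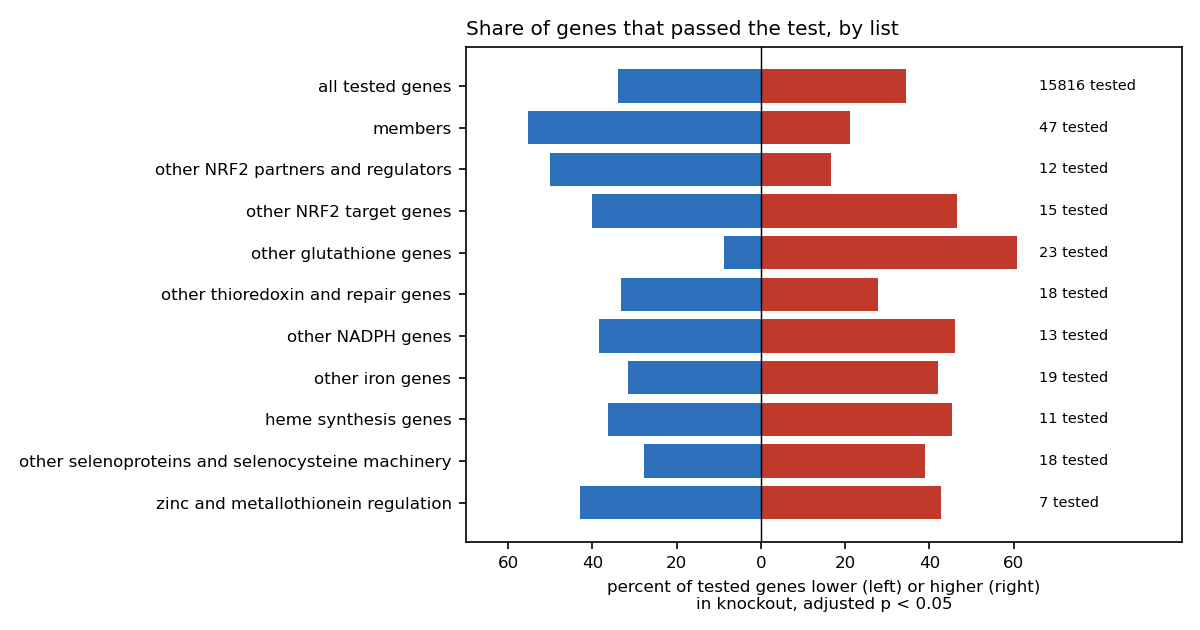
Percent of tested genes called lower (blue, left) or higher (red, right) in KO, for all 15816 tested genes, the 47 members and the 9 lists of other pathway genes, with the number tested beside each bar. The members have 55.3% lower and 21.3% higher, and the other glutathione genes 8.70% lower and 60.9% higher. All genes have 34.0% lower and 34.5% higher.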

How the data were processed

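The authors deposited 1 table of whole-number read counts per gene for each of the 6 libraries. The submitters' processing notes name HISAT2 2.1.0, HTSeq 0.9.1 and DESeq2 1.18.1, and the build mm10. Strand setting, read layout and annotation release are not given in the sources used here. Reads assigned to genes made up 36.0 to 38.4% of each library and reads on no feature 42.3 to 43.5%. The 5 tallies of unassigned reads stayed out of library sizes and tests. Symbols, positions and transcripts came from GENCODE M21 (GRCm38, the build of mm10) and promoters from RefSeq (GRCm38.p6).

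The counts of all 6 libraries were fitted with edgeR 4.0.16 in R 4.3.3 (filterByExpr with a minimum count of 10, TMM, quasi-likelihood F test, no covariate, Benjamini-Hochberg over 15816 genes, threshold 0.05). CPM values use the TMM-scaled library size. SEs are the log2 fold change divided by the root of F, and the code was tested on simulated data. The members, lists and tests were chosen with earlier results of these data known. Any member may be named, and from each list of other genes the rule named the 3 genes with the smallest adjusted p past 0.05 and a mean of at least 5 CPM in the higher group. Some other genes were named outside this rule, with their values known. Alternatives were DESeq2 1.42.0, limma-voom (limma 3.58.1), RLE, upper-quartile or no scaling beyond totals, other filters, the replicate number as a block, genes left out, and each library left out in turn.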

Additional observations from a re-analysis of the deposited data

How the results depend on the processing

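Across the alternatives 33 to 39 of the members were called, 10 to 12 higher and 23 to 28 lower, beside 7015 to 11424 of all tested genes. The 33 called and 23 lower came from leaving out genes that overlap the other strand, where only 37 members remained to be tested. In every alternative with a value, 40 of the 47 tested members and all 27 named pathway genes kept their direction and their call. Leaving out genes that overlap the other strand, which tests fewer genes, gave 7015 called genes (3547 higher, 3468 lower) against 10848, 33 other pathway genes higher against 57, and a members' median log2 fold change of -0.27 against -0.20. Leaving out 1 library at a time gave 35 to 39 called members (10 to 12 higher, 25 to 28 lower) and 92 to 98 called pathway genes. Of all tested genes, 10359 to 10585 were called in these fits. The log2 fold change of Ftl1 was -0.011 without WT replicate 3, -0.021 without KO replicate 1 and 0.12 without KO replicate 3, its range when 1 library was left out. That of Slc40a1 was 0.023 with upper-quartile scaling, 0.00082 with library totals only, 0.0019 without KO replicate 1, 0.066 without KO replicate 3 and -0.11 without KO replicate 2; the cause was not tested. Gpx7 and Me1 passed in 6 alternatives each, Txnrd2 in 2 and Prdx5 in 1. Same-numbered libraries did not deviate together (correlations 0.0133, 0.00486 and -0.0131), and only replicate 1 correlated best with its own number. With the replicate block 38 members and 102 pathway genes were called, beside 10862 of all tested genes. Sod3 and Gstp1, with at most 10 counts in a library, could not be tested, and with 1 to 30 counts Txnrd2 and Mgst1 are the least precise of those that were.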
